A study of Mus musculus with 9 samples.

Results

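The 10 genes described here encode proteins of the dense-core granule, the vesicle in which neuroendocrine cells store and release peptide hormones. They were taken by name from a table of 24378 gene rows. They are the granin genes Chga, Chgb, Scg2, Scg3 and Vgf, the granule-lumen gene Resp18, the granule-membrane genes Ptprn and Ptprn2, and the priming genes Cadps and Cadps2. All 10 symbols were found as single rows. The samples were 9 single cells from the hypothalamic paraventricular nucleus of C57Bl6/N mice aged 21 to 28 days. All carry 1 label, secretagogin-positive, with no treatment and no comparison group, and the text uses the label's own numbering, cell 1 to cell 9. No animal is named for any cell. The 9 cells were therefore treated as 1 sample, no p-value was computed, and differences between cells were set against exact 95% intervals that cover counting error only.

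Granins are acidic proteins that aggregate with prohormones in the trans-Golgi network and take part in granule formation, and several are cut into peptides of their own. Ptprn and Ptprn2 encode IA-2 and phogrin, which resemble tyrosine phosphatases and span the granule membrane. Cadps and Cadps2 encode the CAPS proteins, which prime docked granules for calcium-triggered release. Paraventricular neuroendocrine neurons send such granules, filled with corticotropin-releasing hormone, vasopressin or oxytocin, to the median eminence and the posterior pituitary.

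The gene molecules per cell, without spike-in RNAs, ranged from 1021 in cell 1 to 26466 in cell 5, with 3393 in cell 6 and 7160 to 13176 in the others. For a count of 0, the exact interval reached 36.1 per 10000 gene molecules for cell 1, 10.9 for cell 6 and 1.39 for cell 5. Spike-in molecules were 1962 to 2184 in cells 1 to 8, and 614 in cell 9, the only cell whose column name gives lane 4. Lane and cell cannot be told apart for cell 9. Scgn, the gene that gives the cells their label, had at least 1 molecule in 5 of 9 cells. It had 11 in cell 3, 3 in cell 8 and 1 in each of cells 2, 5 and 9. In 4 cells, called mixed here, at least 3 markers of a non-neuronal type had 2 or more molecules: all 8 oligodendrocyte markers in cell 5, 7 of 8 endothelial markers in cell 7, 6 of 6 ependymal and 4 of 7 astrocyte markers in cell 8, and 7 of 8 endothelial and 4 of 6 blood markers in cell 4. In each other cell at most 2 markers of any such list had 2 or more molecules. All 6 microglial markers were at 0 in every cell.

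The 10 genes held 495 molecules in all, and their content was uneven. Resp18 gave 264 of them (53.3%), the 5 granins 164 (33.1%), the membrane genes 53 and the priming genes 14. The summed share of a cell's molecules was highest in cell 9, at 1.39%, and lowest in cell 4, at 0.0582%. In cell 1 it rested on 1 molecule. Of the 10 genes, 6 were detected, at 1 or more molecules, in at least 5 of the 9 cells, against 6.76% of all gene rows and 34.8% of the 4689 rows whose total lay within the members' own range of 4 to 264 molecules. Those 6 were Chga, Scg2, Scg3, Resp18, Ptprn and Ptprn2. With 2 or more molecules required, the count was 3 of 10, against 2.55% of all gene rows, and with 3 or more it was the same, against 1.39%. When detection in at least 7 cells was required, 2 of 10 remained, Scg2 and Ptprn, against 2.01% of all gene rows. Without the 4 mixed cells, 7 of 10 were detected in at least 3 of the 5 cells left, against 5.78% of all gene rows. Only 9779 of the 24378 gene rows had a molecule in any cell, so the shares of all gene rows are low in part for that reason. A share over rows within the members' range of totals was computed for the first count only. That range starts at the 4 molecules of Cadps2, and a row of 4 molecules cannot be detected in 5 cells. Every other member had 10 or more molecules, so the 34.8% is not a matched share. No excess is read from the 6 of 10.

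**Figure D1:**
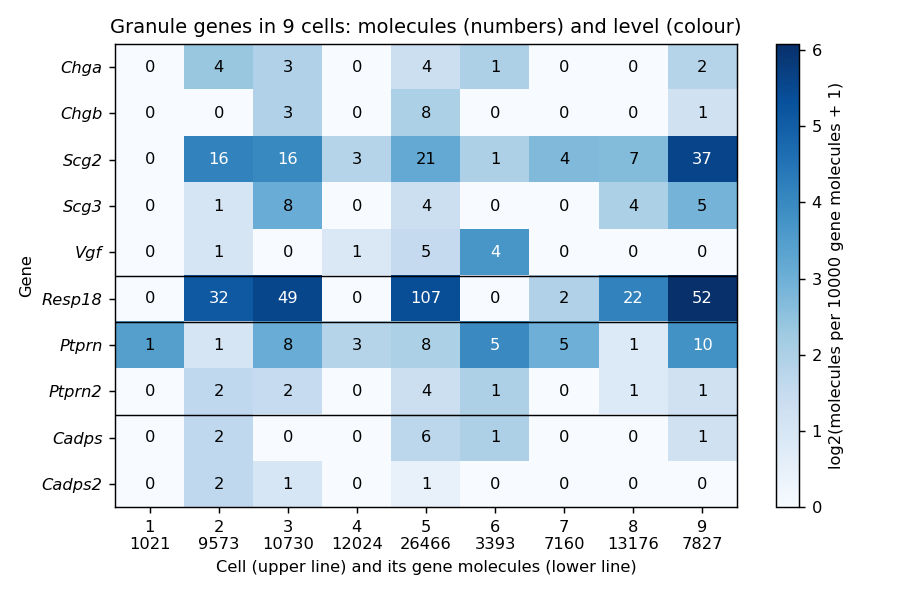
Molecules of the 10 genes (numbers, rows) in 9 cells (columns, with the gene molecules of each cell beneath), coloured by log2(molecules per 10000 gene molecules + 1). Resp18 and Scg2 are darkest in cell 9, at 66.4 and 47.3 per 10000, and only Ptprn has a molecule in every cell.

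Scg2, the most abundant granin gene, encodes secretogranin II, the precursor of secretoneurin. It lies on chromosome 1 at 79434669 to 79440120 (minus strand, GENCODE M21, GRCm38/mm10), with 2 exons in its longest coding transcript. The counts were 37 for cell 9, 21 for cell 5, 16 for both cell 2 and cell 3, 7 for cell 8, 4 for cell 7, 3 for cell 4, 1 for cell 6 and 0 for cell 1. These counts are 64.0% of the granin molecules. Per 10000 gene molecules, cell 9 reached 47.3 (interval 33.3 to 65.2), and no other cell exceeded 16.7. The Scg2 level in cell 9 was 2.83 times that in cell 2 (interval of the ratio 1.54 to 5.45), 3.17 times that in cell 3 (1.72 to 6.10) and 5.96 times that in cell 5 (3.40 to 10.7). Relative to spike-ins the gap was wider, at 60.3 Scg2 molecules per 1000 spike-in molecules in cell 9 and 9.62 in cell 5, which came next. Cell 9 had 614 spike-in molecules, against 1962 to 2184 in cells 1 to 8, and this smaller divisor raises every gene of cell 9 on that scale.

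Scg3 encodes secretogranin III, which binds chromogranin A and cholesterol-rich granule membrane. It lies on chromosome 9 at 75643189 to 75684056 (minus strand). The counts were 8 for cell 3, 5 for cell 9, 4 for both cell 5 and cell 8, 1 for cell 2 and 0 for the rest. The level per 10000 was 7.46 in cell 3 (interval 3.22 to 14.7) and 6.39 in cell 9 (2.07 to 14.9), so these cells did not differ beyond counting error. In cell 5 it was 1.51 (0.412 to 3.87). Its interval overlaps that of cell 3 only at the ends. No interval of the ratio was computed for cells 3 and 5, so this overlap does not show them to be alike.

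The chromogranin genes, which encode the classical markers of the adrenal chromaffin granule, were sparse. Chga, on chromosome 12 at 102554969 to 102565028 (plus strand), was counted 4 times in both cell 2 and cell 5, with 3 molecules for cell 3, 2 for cell 9 and 1 for cell 6. Chgb, on chromosome 2 at 132781278 to 132795079 (plus strand), was counted 8 times in cell 5, with 3 molecules for cell 3 and 1 for cell 9. Neither gene had a molecule in cells 1, 4, 7 and 8. In cell 8, at 13176 gene molecules, the exact interval for a count of 0 reached 2.80 per 10000, which overlaps the interval of every cell in which either gene was detected.

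Vgf encodes a neurotrophin-inducible granin that is cut into several peptides. Its gene is on chromosome 5 at 137026392 to 137033351 (plus strand), and its counts were 5 for cell 5, 4 for cell 6, 1 for both cell 2 and cell 4, and 0 for the rest. Cell 6 therefore stood highest per 10000, at 11.8 (interval 3.21 to 30.2), against 1.89 (0.613 to 4.41) in cell 5. These intervals overlap. Vgf had no molecule in cells 3 and 9, which had the highest Scg3 and Resp18 levels per 10000 and where the exact interval for a count of 0 reached 3.44 and 4.71 per 10000.

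The proximal promoters of the granin genes are shown because several hold a cAMP response element (CRE), the element through which cAMP and calcium signals act on granin genes in cultured neuroendocrine cells. RefSeq windows of 300 bases (GRCm38.p6, 250 bases before each start and 50 after) were found for 9 of the 10 genes, all but Vgf. The 8-base CRE, TGACGTCA, reads the same on both strands. Its 5-base core, TGACG, was searched on both strands, and every full CRE contains it. The letters below run 5′ to 3′ on the gene's own strand, with the full CRE or its core in capitals.
Scg2: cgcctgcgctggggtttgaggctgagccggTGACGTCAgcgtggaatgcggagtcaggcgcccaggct
Chgb: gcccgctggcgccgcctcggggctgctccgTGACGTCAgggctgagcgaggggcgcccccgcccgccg
Chga: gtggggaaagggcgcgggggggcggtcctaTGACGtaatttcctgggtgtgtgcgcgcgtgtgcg
Scg3: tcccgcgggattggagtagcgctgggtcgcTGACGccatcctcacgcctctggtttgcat
Ptprn: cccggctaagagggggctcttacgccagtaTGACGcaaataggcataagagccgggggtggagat
Resp18: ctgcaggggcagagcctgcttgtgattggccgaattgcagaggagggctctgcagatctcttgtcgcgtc

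The Scg2 stretch is chr1:79440057-79440124 and its CRE lies at bases -68 to -61 from the RefSeq start. The Chgb stretch is chr2:132781540-132781607, with the CRE at -72 to -65. The core stands at -44 to -40 in Chga (chr12:102554867-102554931), at -30 to -26 in Scg3 (chr9:75684057-75684116) and at -117 to -113 in Ptprn (chr1:75264291-75264355). The Ptprn window holds another core on the opposite strand at -80 to -76, outside the stretch printed. Of the 9 genes with a window, 2 held the full CRE and 5 held the core, while 1.79% of all 32851 RefSeq windows held the full CRE and 20.8% held the core. Ptprn has 2 windows, of which 1 held the core, and is counted as 1 gene. The member counts are thus by gene and the shares by window. The last 70 bases before the Resp18 start (chr1:75278416-75278485) are shown because its whole window held no core, as was so for Ptprn2, Cadps and Cadps2. Chgb and Scg2, which share the full CRE, had 4.38 and 41.7 molecules per kilobase over the 9 cells. GENCODE places the starts of Scg2, Chgb and Ptprn further upstream than RefSeq does, so the positions given hold for the RefSeq starts only.

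**Figure D2:**
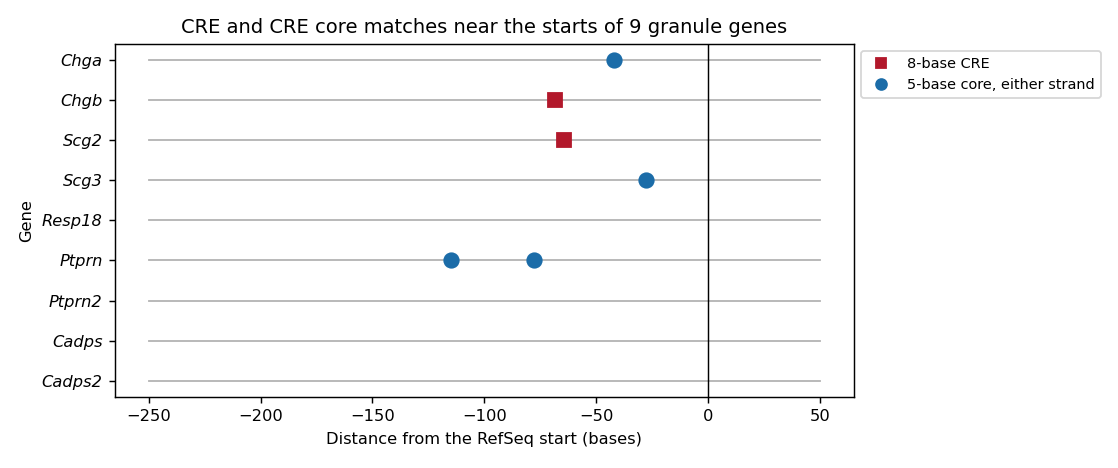
Matches to the 8-base CRE (squares) and to its 5-base core outside a full CRE (circles, either strand) by distance in bases from the RefSeq start, for 9 genes, with the first of 2 starts for Ptprn. The granin windows of Chgb and Scg2 hold the full element, and Resp18, Ptprn2, Cadps and Cadps2 hold neither.

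Resp18 encodes a small protein of the secretory pathway of endocrine cells, related to the luminal part of IA-2. It lies on chromosome 1 at 75272199 to 75278415 (minus strand), with 7696 bases and no annotated gene between its 3′ end and the 5′ start of Ptprn. The counts were 107 for cell 5, 52 for cell 9, 49 for cell 3, 32 for cell 2, 22 for cell 8, 2 for cell 7, and 0 for cells 1, 4 and 6. By total, Resp18 ranked 21 of all gene rows. Cells 2, 3, 5 and 9 formed the upper end per 10000, at 33.4, 45.7, 40.4 and 66.4, and cell 8 followed at 16.7. Cell 9 exceeded cell 5 by 1.64 times (interval of the ratio 1.16 to 2.31). Cell 9 and cell 3 did not differ beyond counting error (1.45 times, 0.966 to 2.19), nor did cells 3 and 5 (1.13 times, 0.789 to 1.60).

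At the lower end, the counts of cells 4, 6 and 7 lay beyond counting error from those of cells 2, 3, 5 and 9. In cell 4 the interval for no Resp18 molecule reached 3.07 per 10000, and in cell 6 it reached 10.9, both under the lowest end of the intervals of cells 2, 3, 5 and 9, which was 22.9. Cell 7 held 2.79 per 10000 (interval 0.338 to 10.1). In cell 1 the interval reached 36.1, so nothing can be read from its 0. Cells 4 and 7 are the mixed cells with endothelial markers, at 126 and 83.8 per 10000, and cell 6 had 11.8 from 2 of the 8 endothelial markers. The neuron markers took 9.15 per 10000 in cell 4, with 35.4 for cell 6 and 97.8 for cell 7, against 76.3 to 112 in cells 2, 3, 5 and 9. Mitochondrial genes took 22.6% of the molecules of cell 4, 34.2% of cell 6 and 13.4% of cell 7, against 4.31% to 9.37% in cells 2, 3, 5 and 9. Cell 8, with 22 Resp18 molecules, had a mitochondrial share of 16.5% and 17.5 neuron-marker molecules per 10000. Scgn had no molecule in cells 4, 6 and 7, and 1 to 11 molecules in cells 2, 3, 5, 8 and 9. The part of Scgn, of the markers and of the mitochondrial share in the Resp18 counts was not tested. Of 13 neuron-marker molecules in cell 1, 11 came from Snhg11, a long non-coding RNA, and 56 of the 70 in cell 7 did.

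The balance between the 2 most abundant genes varied between cells. Resp18 made up 83.6% of the Resp18 and Scg2 molecules in cell 5 (107 of 128, exact binomial interval 76.0 to 89.5%), and 58.4% in cell 9 (52 of 89, 47.5 to 68.8%). These intervals do not overlap. Cells 2, 3 and 8 lay between them, at 66.7%, 75.4% and 75.9%. Cells 4, 6 and 7 had 3, 1 and 6 molecules of the pair. The interval of cell 4, 0 to 70.8% from 3 molecules, lay below that of cell 5 but overlapped that of cell 9. Cells 6 and 7 had too few molecules to be placed against either. Over all cells the share was 71.5%. Cell 5 carries 421 molecules of oligodendrocyte markers and cell 9 is the lane 4 cell, and the part of either in the difference was not tested.

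**Figure D3:**
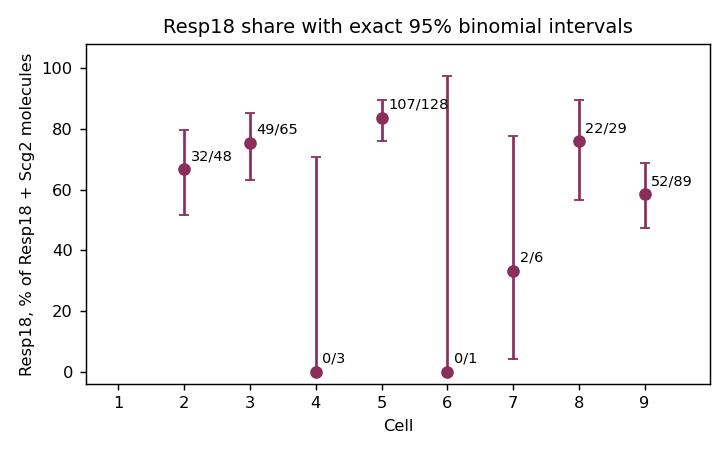
Resp18 as a percentage of Resp18 plus Scg2 molecules in each of 8 cells (points, with the counts beside them), with exact 95% binomial intervals as bars; cell 1 had neither gene. Cell 5 is highest at 83.6% among cells with more than 6 molecules, cell 9 lowest at 58.4%.

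Ptprn was the only gene of the 10 with a molecule in every cell. It lies on chromosome 1 at 75247027 to 75264502 (minus strand) and spans 23 exons in its longest coding transcript. The counts were 10 for cell 9, 8 for both cell 3 and cell 5, 5 for both cell 6 and cell 7, 3 for cell 4, and 1 for each of cells 1, 2 and 8. Per 10000 it ranged from 0.759 in cell 8 to 14.7 in cell 6 (interval 4.78 to 34.4), and cell 9, at 12.8, did not differ from cell 6 beyond counting error. Cell 6 exceeded cell 5 by 4.88 times (interval of the ratio 1.25 to 16.9) and cell 9 exceeded cell 8 by 16.8 times (2.39 to 731), where the wide interval follows from the single molecule in cell 8. The order of cells by Ptprn was thus unlike that by its neighbour Resp18. Cell 6 had 5 Ptprn and no Resp18 molecules, and cell 2 had 1 Ptprn and 32 Resp18 molecules.

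Ptprn2, on chromosome 12 at 116485720 to 117276849 (plus strand), had 11 molecules, against 42 of Ptprn. Its counts were 4 for cell 5, 2 for both cell 2 and cell 3, and 1 for each of cells 6, 8 and 9. All its levels lay between 0.759 and 2.95 per 10000 where it was detected, with overlapping intervals. The priming genes had 10 and 4 molecules. Cadps, on chromosome 14 at 12372563 to 12823079 (minus strand), was counted 6 times in cell 5, with 2 molecules for cell 2 and 1 for both cell 6 and cell 9. Cadps2, on chromosome 6 at 23262773 to 23839421 (minus strand), was counted 2 times in cell 2, with 1 molecule for both cell 3 and cell 5. For each of these 3 genes the intervals of all 9 cells overlapped. Mean levels of different genes are given per kilobase of the longest coding transcript, whereas the counts and shares of molecules elsewhere are not divided by length. Whether these molecule counts need such a division is not known here. Undivided, the mean per 10000 was 22.8 for Resp18, 11.5 for Scg2 and 6.56 for Ptprn, which places Resp18 and Scg2 closer together. The mean level per 10000 and per kilobase was 30.5 for Resp18, 4.56 for Scg2, 1.85 for Ptprn, 0.906 for Scg3, 0.825 for Chga, 0.610 for Vgf, 0.363 for Ptprn2, 0.288 for Chgb, 0.175 for Cadps and 0.0760 for Cadps2. The SD over cells was as large as the mean or larger for 8 of the 10 genes on the scale per 10000, so no order is read between neighbours below Resp18. The choice of length matters most for Ptprn, whose longest coding transcript has 3.554 kilobases, while the median of its 4 coding transcripts is 0.4855 kilobases and 3 of them are tagged as incomplete. By the median length, chosen after seeing the data, the mean was 13.5 for Ptprn, 30.5 for Resp18 and 4.74 for Scg2, so Ptprn then lay above Scg2.

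The study's design puts no groups side by side, so classes of genes were compared inside each cell. The granins exceeded the membrane and priming genes together, in molecules per kilobase, in 8 of 9 cells. That count rests on the length used for Ptprn: by the median coding transcript length, an alternative added after seeing the data, the granins led in 2 of 9 cells, cells 2 and 8. With the longest transcript the exception was cell 1, with no granin and 1 Ptprn molecule. On this scale the ratio was 7.51 for cell 8, 5.53 for cell 2, 5.51 for cell 9, 4.03 for cell 3 and 3.51 for cell 5, but 1.83 for cell 4, 1.23 for cell 6 and 1.13 for cell 7. In plain molecules the counts were 45 granin against 12 membrane and priming molecules in cell 9, 42 against 19 in cell 5, 30 against 11 in cell 3, 22 against 7 in cell 2 and 11 against 2 in cell 8. They were 4 against 3 in cell 4, 6 against 7 in cell 6 and 4 against 5 in cell 7, so without division by length the granins led in 6 cells. The granin counts rest largely on 1 gene, Scg2, with 105 of the 164 granin molecules. Scg2 gave 37 of the 45 in cell 9, 21 of 42 in cell 5 and 16 of 30 in cell 3. It gave 16 of 22 in cell 2 and 7 of 11 in cell 8. The comparison was not made without Scg2, so no lead of the other granins is read from it. The granin share of these molecules was above 50% with its whole exact interval in cells 2, 3, 5, 8 and 9, and the intervals of cells 4, 6 and 7 covered both sides. Without the mixed cells the granins led per kilobase in 4 of 5 cells.

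**Figure D4:**
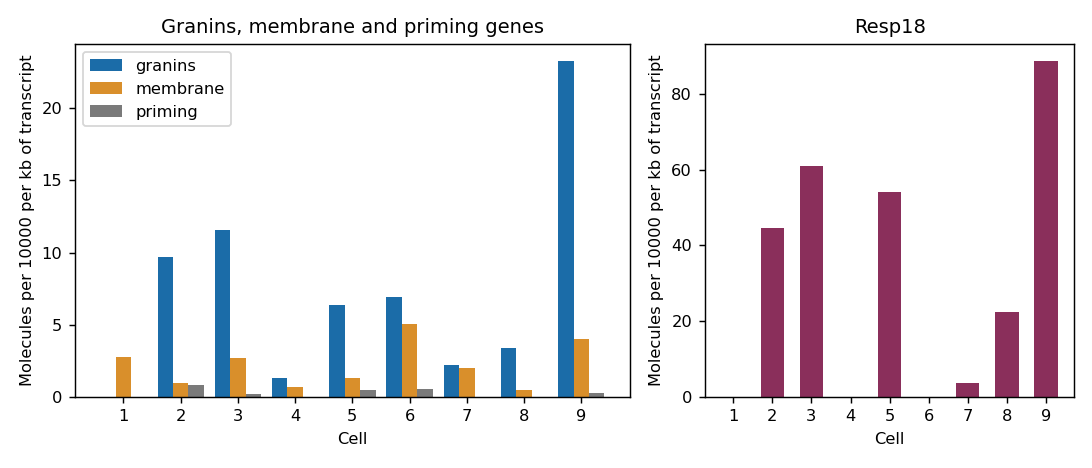
Molecules per 10000 gene molecules and per kilobase of the longest coding transcript in each cell, summed over the 5 granins, 2 membrane genes and 2 priming genes (left) and for Resp18 (right, on its own axis). Granin bars are above the others in every cell but cell 1, by 1.13 times over membrane and priming genes together in cell 7 and 7.51 times in cell 8; by the median transcript length the granins led in 2 cells.

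Peptide content was the summed count of 40 neuropeptide genes, of which 12 had a molecule. Oxt, the oxytocin gene, had 3 to 8 molecules in 8 cells and none in cell 8, whatever the depth, and it was all of the peptide content of cell 1. The sum was therefore also taken without Oxt. It was then 121 molecules in cell 3, with 111 from Sst, the somatostatin gene. The other sums were 30 for cell 9, 29 for cell 7, 21 for cell 5, 17 for cell 8, 15 for cell 2, 3 for cell 4, 1 for cell 6 and 0 for cell 1. Without Oxt, the leading peptide gene was Sst in cells 3, 4 and 7, Sst and Nmb at 5 molecules each in cell 8, Crh in cells 5 and 9, Tac1 in cell 2 and Avp, at 1 molecule, in cell 6.

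Granule genes did not follow peptide content in a fixed ratio. Peptide molecules without Oxt per granin molecule came to 7.25 for cell 7, 4.03 for cell 3 and 1.55 for cell 8, and to between 0.167 and 0.750 for cells 2, 4, 5, 6 and 9. Cells 3 and 7, led by Sst at 103 and 40.5 per 10000, held unlike granule sets. Cell 3 had 49 Resp18, 16 Scg2 and 8 Scg3 molecules, and cell 7 had 2, 4 and 0. Resp18 was 16.3 times higher per 10000 in cell 3 (interval of the ratio 4.29 to 139), whereas the Scg2 ratio of 2.67 (0.861 to 10.97) was within counting error. Ptprn was at 7.46 per 10000 in cell 3 (interval 3.22 to 14.7) and 6.98 in cell 7 (2.27 to 16.3). These intervals overlap, but no interval of the ratio was computed, so the cells are not shown to be alike. Cell 7 carries the endothelial markers, whose part was not tested. Cells 9 and 5, led by Crh at 24.3 and 4.91 per 10000, both had all of Resp18, Scg2, Scg3, Chga, Chgb and Ptprn, as did cell 3.

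Over the 9 cells, the Spearman correlation with the peptide level without Oxt was 0.65 for the granin level, 0.73 for Resp18, 0.03 for the membrane genes and 0.14 for the priming genes. With Oxt in the sum the values were 0.20, 0.17, 0.63 and -0.11. Pearson's r without Oxt was 0.42 for granins and 0.50 for Resp18. It was 0.55 for granins without cells 1 and 9, the cells furthest from the median granin level. For Resp18 it was 0.05 without cells 3 and 9, so the linear relation of Resp18 rests on those cells. The Spearman values without the same cells were 0.50 for granins and 0.63 for Resp18, so the rank relation of Resp18 changed less. The points share the divisor, the total of each cell, and most rest on few molecules. These values describe 9 cells and are no test of a link. The inclusion of 1 peptide gene exchanged the order of the granin and membrane values, and the difference between them was not tested.

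**Figure D5:**
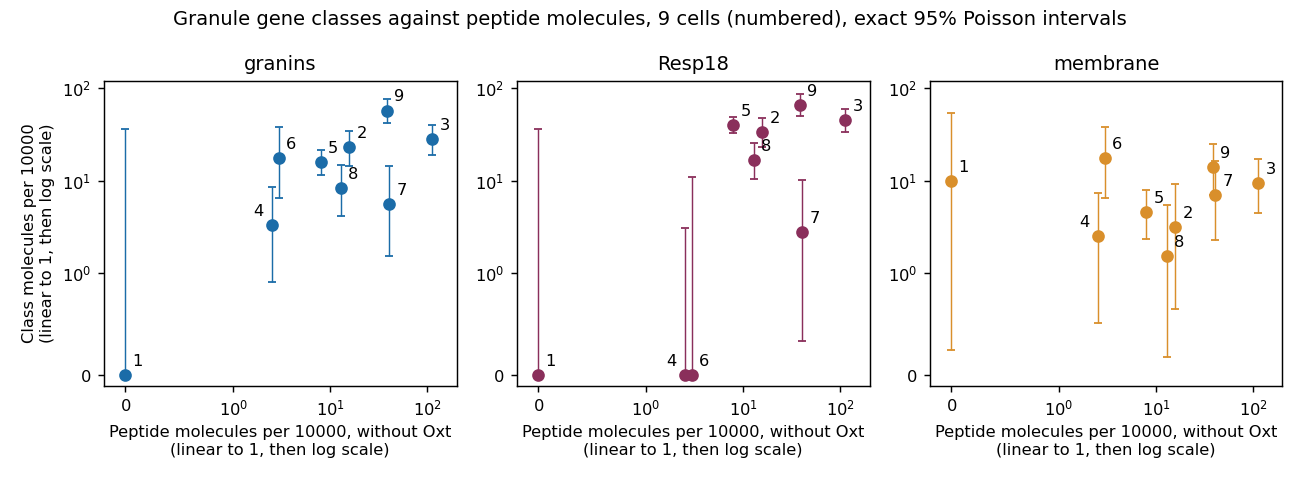
Molecules per 10000 of the granins, Resp18 and the membrane genes (vertical axes) against peptide molecules per 10000 without Oxt (horizontal axes), for 9 numbered cells, with exact 95% Poisson intervals; both axes are linear to 1 and logarithmic beyond. Resp18 is at 0 in cells 1, 4 and 6, which hold 0 to 3 such peptide molecules, while the membrane genes have molecules in every cell.

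Other genes of the granule pathway were described by their detection. Of the 2 granin-like genes, Scg5, which encodes 7B2, the partner of prohormone convertase 2, had 76 molecules in cells 2, 3, 5, 6, 8 and 9, and Pcsk1n, which encodes proSAAS, had 15 in 4 cells. Of 7 processing genes, 4 were detected in at least 5 cells and 3 in 1 to 4 cells. Detection in at least 5 cells held for 6.76% of all gene rows, and for 1648 of the 9779 rows with a molecule. Neither share is matched for total molecules, so no excess is read from the 4 of 7. Cpe, encoding carboxypeptidase E, was counted 23 times in cell 5, with 22 molecules for cell 8 and 17 for cell 9. Pcsk2, encoding prohormone convertase 2, had 13 molecules for both cell 5 and cell 8, and 7 for cell 9. Pcsk1, encoding prohormone convertase 1/3, had 1 molecule, in cell 6. Pam, encoding the enzyme that amidates peptides, had at most 4 in any cell. Cells 1 and 4 had no molecule of Scg5, Pcsk2, Cpe or Pam.

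The genes outside the 10 whose levels were most like the granin sum, by Pearson's r of log2(molecules per 10000 + 1) over 9 cells, were Tubb5 (0.97), Calm3 (0.95), Aldoa (0.95), Ywhaq (0.91) and Tecr (0.91). They encode a beta-tubulin, calmodulin, the glycolytic enzyme aldolase A, a 14-3-3 protein and an enzyme of very-long-chain fatty acid synthesis. The 1642 genes detected in at least 5 cells had a median r of 0.42, so a positive value was the rule, and cell 1, with no molecule of these 5 genes, lay at the low end. Without cell 1 the values were 0.95, 0.90, 0.89, 0.81 and 0.85, against a median of 0.22. Tubb5 then ranked 1, Calm3 4, Aldoa 5, Tecr 19 and Ywhaq 40, so Tecr and Ywhaq were not among the first 5. On the same scale Resp18 had r = 0.75, Ptprn2 0.78, Cadps 0.56, Cadps2 0.40 and Ptprn 0.05. Without cell 1 they were 0.70 for Resp18, 0.76 for Ptprn2, 0.53 for Cadps, 0.37 for Cadps2 and 0.42 for Ptprn, which is the member that moved most.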

How the data were processed

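The authors' single deposited table gives counts, whole numbers without normalization, for 24378 gene rows and 92 spike-in rows in 9 cells, called molecules after the deposit's name. How reads were collapsed to molecules, the counter and its strand setting are not given in the sources used here. Antisense genes overlapping Ptprn and Resp18 can therefore not be separated. The submitters' processing notes name mm10 and Bowtie, without a version. Columns were assigned by cell number, with 0 left over. Levels are molecules per 10000 gene molecules of a cell. Intervals are exact Poisson or Clopper-Pearson at 95%, ratios between cells use the exact conditional interval for pairs picked after their values were seen, and all cover counting error only. Doublets were not called in 9 cells; marker lists were summed instead. Lengths and positions are from GENCODE M21, promoters from RefSeq GRCm38.p6. The members and lists were chosen with earlier results of these data known. Named genes were the members, detected genes of the granin-like, processing and peptide lists, the 4 most abundant traffic genes, the 5 genes most like the granin sum, and markers with at least 5 molecules in a cell. Other genes named, such as Ptprn beside other rows found in every cell, follow from their values. Alternatives were other detection limits, classes, totals, lengths (the median transcript length was added after seeing the data), peptide lists and subsets of cells. Python 3.11.15 was used, with scipy 1.17.1, numpy 2.4.6, matplotlib 3.10.9 and pandas 2.3.3.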

Additional observations from a re-analysis of the deposited data

Results flagged for a closer look

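In 5 of 16 measures checked over the 9 cells, the gap between 1 cell and the next was large for the range of the group. Chance gives about 1 in 20 for evenly measured values, a figure that does not carry over to sparse counts of unequal depth or to measures that overlap, so no excess is read from this number. The Scg2 level stood apart in cell 9, at 47.3 per 10000 against 16.7 in cell 2, which came next, and the granin sum did so in the same cell, at 57.5 against 28.0 in cell 3. Vgf stood apart in cell 6, at 11.8 per 10000 from 4 molecules, against 1.89 in cell 5. The exact intervals of these cells overlap at their ends, and no interval of their ratio was computed. Cadps2 stood apart in cell 2, at 2.09 per 10000 from 2 molecules, although the intervals of all 9 cells overlap, and the peptide sum without Oxt in cell 3, at 113 per 10000 against 40.5 in cell 7. The granin sum contains Scg2, so those results are not separate. Cell 9 is the only lane 4 cell and has the fewest spike-in molecules, and lane and cell cannot be told apart.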

How the results depend on the processing

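The count of 6 genes detected in at least 5 of 9 cells was 3 when detection required 2 molecules, 3 when it required 3 molecules, 2 when 7 cells were required, and 1 (Resp18) by the expected number of cells after thinning to 1021 molecules. It was 4 to 6 when any 1 cell was left out. The cells in which granins led per kilobase were 8 of 9, were 7 to 8 of 8 with 1 cell left out, and were 4 of 5 without the mixed cells, where fewer cells could count. By the median coding transcript length, added after seeing the data, they were 2 of 9, because the length of Ptprn then fell to 0.4855 kilobases. The median granin share of the molecules of the 10 genes was 36.1%, ranged from 34.7% to 36.2% with 1 cell left out, and was 17.2% after division by the longest and 13.6% by the median transcript length, and 87.8% with Resp18 counted as a granin, all by construction. The rank correlation of granin and peptide levels, 0.20, was 0.65 without Oxt and 0.68 per spike-in molecule. On the spike-in scale neither level is divided by the gene molecules of a cell, so depth enters both. The correlation was 0.0833 with mitochondrial genes and globins left out of the total, and 0.117 with Resp18 counted as a granin. It was 0.10 without the mixed cells and 0.54 without the cells under 50% of the median depth. Pearson's r of the log2 levels was 0.00822. With 1 cell left out, the rank correlation ranged from -0.0714 (without cell 3) to 0.55 (without cell 1). The cause was not tested. Depth limits cells 1 and 6 most. No paired analysis was possible because all cells belong to 1 group.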

Other observations

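Of 22 genes of granule traffic and release, 21 were found in the table. At least 5 cells held a molecule of 8 of them, 1 to 4 cells held one of 10 others, and 3 had no molecule. Among all gene rows, 6.76% had a molecule in at least 5 cells. That share is not matched for total molecules, so no excess is read. The 4 with the most molecules were Syt11 (63), Snap25 (57), Syt4 (42) and Rab3c (28). Syt4, a synaptotagmin found on dense-core granules, had 1 to 10 molecules in each cell but cell 1. Snap25, the plasma-membrane SNARE, had 39 of its molecules in cell 5. Rab3c, a Rab3 GTPase of secretory vesicles, had 1 to 8 molecules in each cell but cell 1.

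Ptprn, with 42 molecules, was among 46 gene rows with a molecule in all 9 cells. Their median total was 110.5 molecules, and 12 of them, Ptprn included, had 42 or fewer. Its single molecule in cell 1 was the only one of the 10 granule genes in that cell.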
